A study of Mus musculus with 391 samples.

Results

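The growth factor receptor gene Csf1r, its ligand genes Csf1 and Il34, and the receptor genes Csf2ra, Csf2rb and Csf3r of the related colony-stimulating factors were followed through single cells of the adult mouse brain. They were picked by symbol, 6 of the 56941 genes in the deposited count table. The cells came from mechanically and enzymatically dissociated brain, from which vascular fragments were taken, broken up further and sorted into 384-well plates for Smart-seq2, a full-length RNA sequencing method. The labels call 280 of the 391 cells microglia and 111 endothelial. In the deposited cell annotation these classes carry the codes MG and CP-EC. What CP stands for is not given in the sources used here, so the endothelial cells may not stand for brain endothelium at large. The labels name no strain, sex, age beyond adult, treatment or animal, so each class counted as 1 sample and no test was run between them.

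Csf1r encodes a receptor tyrosine kinase on which microglia and most tissue macrophages depend for survival and proliferation, and its protein binds both colony-stimulating factor 1 and interleukin 34. In the brain interleukin 34 is known mainly as a product of neurons, and colony-stimulating factor 1 as a product of glia and other cells. Csf2ra and Csf2rb encode the alpha chain and the common beta chain of the receptor for granulocyte-macrophage colony-stimulating factor, and Csf3r the receptor for granulocyte colony-stimulating factor, best known from neutrophils.

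The classes held 47508014 and 21361227 gene reads, with a median of 146506 reads in a microglia-class cell (range 39876 to 504875) and 174345 in an endothelial cell (range 83954 to 602175). By column name the cells fell on 4 plates, lettered A to D. Plate A carried 133 cells of the microglia class beside 7 endothelial cells, plate B 147 beside 10, and plates C and D carried 50 and 44 cells, all endothelial. Levels are in CPM, the reads of a gene summed over a class and scaled to 1000000 gene reads of that class. Intervals are exact at 95%, Poisson for levels, conditional binomial for ratios and Clopper-Pearson for shares of cells. Reads carry no molecular identifiers, so these intervals cover counting error only, treat cells as independent and hold no variation between animals. Core markers of the microglia class summed to a median of 30374 CPM in microglia-class cells and 21.5 CPM in endothelial cells, and each of 12 endothelial markers passed 4-fold towards the endothelial class.

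The microglia class was not 1 kind of cell. Clustered without the 6 genes, it fell into 3 clusters. Cluster 1 held 191 cells (68.2%) and had the macrophage genes Cbr2, F13a1, Pf4 and Ms4a7 among its top 10 genes by fold. With 7 of 10 markers of border-associated macrophages read in at least 50% of its cells, it is called border-associated-macrophage-like. Cluster 2 held 55 cells (19.6%), had Slc2a5, Sparc and Sall1 among its top genes and all 10 microglia markers in at least 50% of its cells, and is called microglia-like. Cluster 3 held 34 cells (12.1%), had Napsa and Dpp4 among its top genes and 5 of 10 dendritic cell markers in at least 50% of its cells, and is called dendritic-cell-like. Dendritic cell markers summed to 4559 CPM in cluster 3, against 199 CPM in the other cells of the class. Of those 10 markers 2 stood at 0 reads in cluster 3, and 8 of 10 microglia markers, 7 of 10 border-associated macrophage markers and the monocyte marker Ccr2 were also read in at least 50% of its cells. Microglia markers summed there to 1144 CPM and border-associated macrophage markers to 1304 CPM, against 11732 and 6368 CPM in the other cells. Of the 34 cells 9 were on plate A and 25 on plate B. With genes scaled before clustering these cells did not stand alone but fell, all 34, in a cluster of 96, so cluster 3 depends on that choice. In cluster 1, too, 8 of 10 microglia markers were read in at least 50% of the cells, at a sum of 6112 CPM beside 8827 CPM for border-associated macrophage markers. The term microglia class below repeats the label and names no single kind of cell.

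Csf1r was the most abundant of the 6 genes per length in the microglia class and was read in all 280 of its cells. The level ran from 11.8 CPM in the lowest microglia-class cell through a median of 4558 to 18289.5 CPM in the highest. In endothelial cells the lowest and the median cell were at 0, and the highest was at 1535 CPM. The ranges overlapped, but a single endothelial cell lay above 100 CPM. Pooled, Csf1r stood at 4524 (4505 to 4543) CPM in the microglia class and 17.0 (15.3 to 18.9) CPM in the endothelial class, a ratio of 265 (239.6 to 295). At 10 or more reads Csf1r was seen in 94.3% (90.9 to 96.7) of microglia-class cells and 0.901% (0.0228 to 4.92) of endothelial cells. At 1 or more reads the shares were 100% and 39.6%, and 99.2% and 20.7% with every cell thinned to 70000 reads, in the same class order.

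That 1 endothelial cell decided the endothelial level. It sat on plate C and held 294 of the 364 endothelial Csf1r reads (80.8%), and also 116 of the 127 Csf2rb reads (91.3%). It had reads of 10 of 14 other core microglia markers at a summed 1117 CPM, and of 11 of 12 endothelial markers at 23575 CPM. Without it the endothelial level of Csf1r was 3.31 (2.58 to 4.18) CPM and the ratio 1368 (1083 to 1755). The remaining reads followed the plates, with 8.31 CPM on plate A, 9.43 on plate B, 3.65 on plate C and 0.911 on plate D. The other core microglia markers summed over the same endothelial cells to 79.0, 79.7, 33.4 and 13.9 CPM in the same plate order. Plates A and B, which also carried microglia-class cells, were thus the highest for both, and the part of carried-over RNA was not tested. Hmgxb3 overlaps Csf1r on the opposite strand and had 669 reads in endothelial cells. Whether the counting used strand is not given in the sources used here, so few Csf1r reads in a cell cannot be told apart from reads of this neighbour. The pseudogene row Csf1r-ps had 44 reads in the microglia class and 0 in the endothelial class. Within the microglia class the plates were close, with Csf1r at 4688 CPM on plate A and 4435 CPM on plate B.

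**Figure D1:**
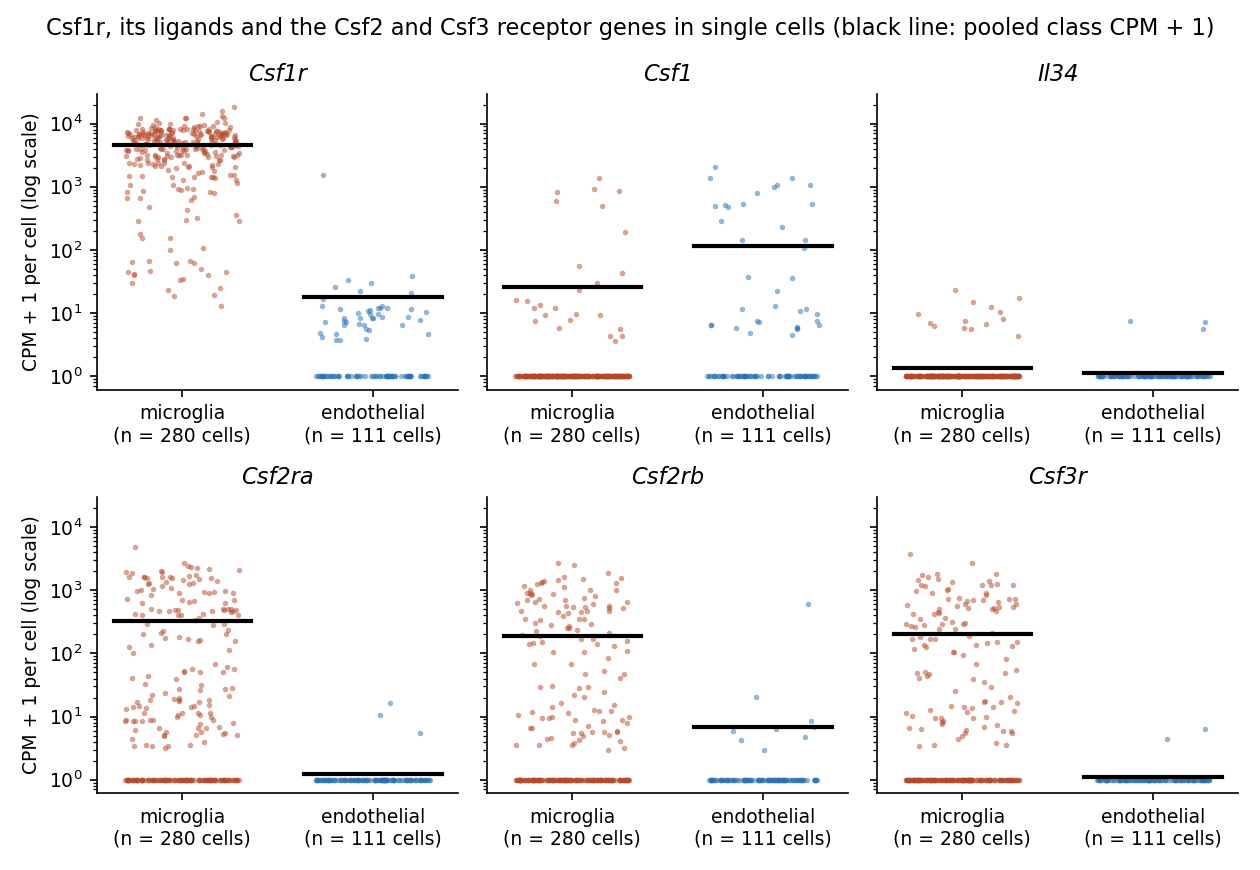
Levels of the 6 genes in each cell, as CPM + 1 on a log scale, with microglia-class cells (red, left) and endothelial cells (blue, right) and a black line at the pooled level of the class. Nearly all microglia-class cells lie far above the endothelial cells for Csf1r, Csf1 appears in a minority of cells of both classes, and Il34 stays near 0 in both.

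Csf1, the ligand gene on which macrophages rely throughout the body, ran the other way and was patchy in both classes. In the microglia class the lowest and the median cell were at 0 and the highest at 1381 CPM. In endothelial cells the lowest and the median were also at 0 and the highest at 2064 CPM. The classes overlapped throughout, and most cells of either had no Csf1 read. Pooled, Csf1 stood at 25.1 (23.7 to 26.6) CPM in the microglia class and 116 (111 to 120.3) CPM in the endothelial class. The endothelial level was 4.61 (4.30 to 4.94) times that of the microglia class. Cells with 10 or more Csf1 reads made up 2.5% (1.01 to 5.08) of the microglia class and 16.2% (9.90 to 24.4) of the endothelial class, 7 and 18 cells. Thinned to 70000 reads, the shares were 2.85% of the microglia class and 13.5% of the endothelial class.

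These few cells carried the level. The 5 cells with most Csf1 reads held 82.5% of the reads of the microglia class and 57.8% of those of the endothelial class. None of the 18 endothelial cells had 10 reads of Csf1r, whereas all 7 microglia-class cells did. This follows the shares of the whole classes, where 1 of 111 endothelial cells and 264 of 280 microglia-class cells had 10 Csf1r reads. The endothelial level of Csf1 also differed between plates, at 0 CPM on plate A, 373 on plate B, 126 on plate C and 55.3 on plate D. On plate A none of 7 endothelial cells had a read, against 22.3 CPM in microglia-class cells of that plate. The direction on plate A was thus the opposite of the pooled one, on 7 endothelial cells, with an upper limit of 41.0% for the share of cells with 10 reads. On plate B microglia-class cells stood at 26.6 CPM and endothelial cells at 373 CPM, and 3 of 10 endothelial cells had 10 or more reads.

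**Figure D2:**
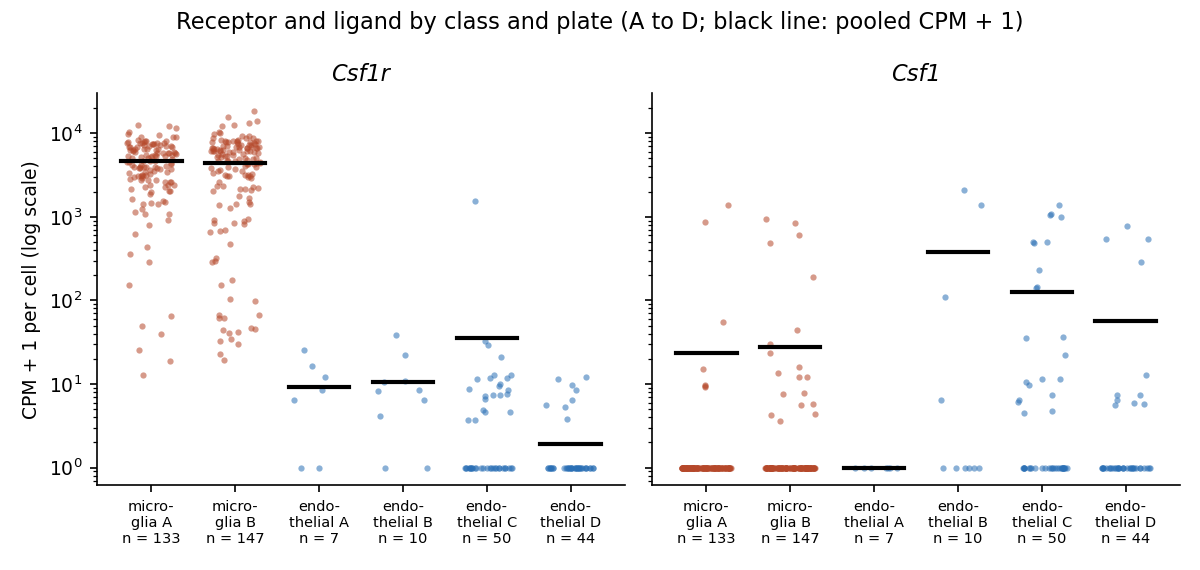
Csf1r (left) and Csf1 (right) in each cell, as CPM + 1 on a log scale, split by class and plate, with a black line at the pooled level. The 1 plate C endothelial cell at 1535 CPM of Csf1r stands apart, and Csf1 is at 0 in all 7 endothelial cells of plate A.

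Il34, the second ligand gene, was close to the counting limit. It had 16 reads in 14 microglia-class cells and 3 reads in 3 endothelial cells, and no cell held more than 3. Pooled, this was 0.337 (0.193 to 0.547) CPM in the microglia class and 0.140 (0.0290 to 0.410) CPM in the endothelial class. The interval of the ratio, 0.686 to 12.8, included 1, so a difference between the classes was not detectable at this depth. Neuron markers summed to 16.2 CPM in the microglia class and 13.4 CPM in the endothelial class. Il34 was the only one of the 6 that missed the minimum of 1 CPM in either class.

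Csf2ra, Csf2rb and Csf3r each reached 10 reads in a minority of microglia-class cells and, but for 1 cell, in no endothelial cell. Csf2ra ran from 0 through a median of 6.17 to 4810.5 CPM over microglia-class cells, and from 0 through a median of 0 to 15.7 CPM over endothelial cells. Pooled, it stood at 328 (323 to 333) CPM in the microglia class and 0.234 (0.0760 to 0.546) CPM in the endothelial class, from 15592 and 5 reads, a ratio of 1402 (601 to 4319). Csf2ra reached 10 reads in 31.8% (26.4 to 37.6) of microglia-class cells and in none of 111 endothelial cells, for which the interval allows a share of up to 3.27%.

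Csf2rb had a median of 0 and a highest cell of 2646 CPM in the microglia class, and a median of 0 and a highest cell of 606 CPM in the endothelial class. The pooled levels were 188 (185 to 192) CPM in the microglia class and 5.95 (4.96 to 7.07) CPM in the endothelial class, a ratio of 31.7 (26.6 to 38.1). The highest endothelial cell was the same plate C cell, and without it the endothelial level was 0.520 CPM and the ratio 363 (203 to 727). Csf3r had a median of 0 and a highest cell of 3759 CPM in the microglia class, while 2 of 111 endothelial cells had 1 read each. Its pooled levels were 200.03 (196 to 204) CPM in the microglia class and 0.0936 (0.0113 to 0.338) CPM in the endothelial class, a ratio of 2136 (591 to 17644). Of 10 neutrophil markers, 9 had 3 reads or fewer in the microglia class, and Ltf stood at 1.20 CPM. Csf2rb2, the mouse gene for a beta chain specific to interleukin 3 and a near copy of Csf2rb, stood at 62.5 CPM in the microglia class and 0.187 CPM in the endothelial class. How reads shared by the pair were counted is not given in the sources used here, so the split between Csf2rb and Csf2rb2 is uncertain.

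Of the 6 genes, 4 passed 4-fold towards the microglia class, as did 19.9 percent of all 14989 genes tested, and 1 passed it towards the endothelial class, as did 11.7 percent. On plate A 5 of the 6 passed 4-fold towards the microglia class (46.5 percent of genes), since Csf1 joined them. On plate B 4 did (48.4 percent of genes), and Csf1 passed it towards the endothelial class (11.5 percent). Scaled to exon length as RPKM, the CPM per kilobase of exon, Csf1r stood at 784 RPKM in the microglia class. Csf2ra followed at 114, Csf3r at 55.4, Csf2rb at 25.9, Csf1 at 4.75 and Il34 at 0.172 RPKM. In the endothelial class Csf1 led at 21.9 RPKM, ahead of Csf1r at 2.95 and Csf2rb at 0.817 RPKM, and the other 3 were each under 0.1 RPKM. The endothelial values of Csf1r and Csf2rb rested mostly on the 1 plate C cell.

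Across the 3 clusters the receptors split the microglia class in different ways. Csf1r was highest in the microglia-like cluster, Csf2ra and Csf2rb were highest in the dendritic-cell-like cluster, and Csf3r was highest in the microglia-like cluster and nearly missing from the dendritic-cell-like one. With genes scaled before clustering, the cluster of 96 that took in the dendritic-cell-like cells had Csf3r at 95.3 CPM and Csf2rb at 224 CPM, again the lowest and the highest of 3 clusters, at 133.6 and 165 CPM in the cluster of 130 and 498 and 166 CPM in that of 54. Of the 1192 Csf1 reads of the class, 1109 sat in the microglia-like cluster.

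Over the 55 microglia-like cells Csf1r ran from 2331 through a median of 6887 to 18289.5 CPM, and pooled it was 6985 (6936 to 7034) CPM. Over the 191 border-associated-macrophage-like cells it ran from 18.3 through a median of 4295 to 12413.5 CPM, and pooled it was 4674 (4649 to 4699) CPM. Over the 34 dendritic-cell-like cells it ran from 11.8 through a median of 81.8 to 4362 CPM, and pooled it was 734 (716 to 753) CPM. The microglia-like level was 1.49 (1.48 to 1.51) times the border-associated-macrophage-like level and 9.52 (9.27 to 9.77) times the dendritic-cell-like level. The order held on both plates, at 7122, 4387 and 481 CPM on plate A and 6906, 4863 and 792 CPM on plate B. The dendritic-cell-like cells did not reach the median of the microglia-like cells, but the border-associated-macrophage-like cells overlapped both. Microglia markers summed to 25916 CPM in microglia-like, 6112 CPM in border-associated-macrophage-like and 1144 CPM in dendritic-cell-like cells. These markers were not left out of the clustering and named the microglia-like cluster, so their order is in part set by the naming.

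Csf2ra showed another order. Its pooled level was 936 (915 to 957) CPM in the dendritic-cell-like cluster, 213 (208 to 219) CPM in the border-associated-macrophage-like cluster and 163 (156 to 171) CPM in the microglia-like cluster. The median cell was at 768 CPM in the dendritic-cell-like cluster, 3.40 CPM in the border-associated-macrophage-like one and 2.88 CPM in the microglia-like one, with a lowest cell of 0 in each. Csf2ra had 10 or more reads in 82.4% of dendritic-cell-like, 23.0% of border-associated-macrophage-like and 30.9% of microglia-like cells. The lower pair of clusters were close on plate A, with 279.9 CPM in border-associated-macrophage-like and 283 CPM in microglia-like cells, and further apart on plate B, with 169 and 94.3 CPM in the same order. The dendritic-cell-like cluster was highest on both, at 655 CPM on plate A and 1000.3 CPM on plate B.

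Csf2rb stood at 390.4 CPM in the dendritic-cell-like cluster, 185 CPM in the microglia-like cluster and 129.8 CPM in the border-associated-macrophage-like cluster. On plate A the lower pair differed little, at 158 CPM in microglia-like and 159.8 CPM in border-associated-macrophage-like cells. Csf3r stood at 528 (514 to 542) CPM in the microglia-like cluster, 128 (124 to 132) CPM in the border-associated-macrophage-like cluster and 4.32 (3.03 to 5.98) CPM in the dendritic-cell-like cluster. It reached 10 reads in 36 of 55 microglia-like cells, 36 of 191 border-associated-macrophage-like cells and 1 of 34 dendritic-cell-like cells. The microglia-like level of Csf3r was 4.12 (3.95 to 4.29) times the border-associated-macrophage-like level, and the order held on plate A (516, 106 and 19.2 CPM) and plate B (535, 143 and 0.886 CPM).

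Csf1 stood at 99.7 (94.0 to 106) CPM in the microglia-like cluster and 2.96 (2.36 to 3.67) CPM in the border-associated-macrophage-like cluster, and it had no read in the 34 dendritic-cell-like cells. Of the 7 microglia-class cells with 10 or more Csf1 reads, 6 were microglia-like, which is 6 of 55 cells of that cluster. The level of the microglia-like cluster alone came to a log2 ratio of -0.21 over the endothelial class, so the 4-fold endothelial excess of Csf1 did not hold for it. Il34 had 6 reads in the microglia-like cluster, 10 in the border-associated-macrophage-like cluster and 0 in the dendritic-cell-like cluster.

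**Figure D3:**
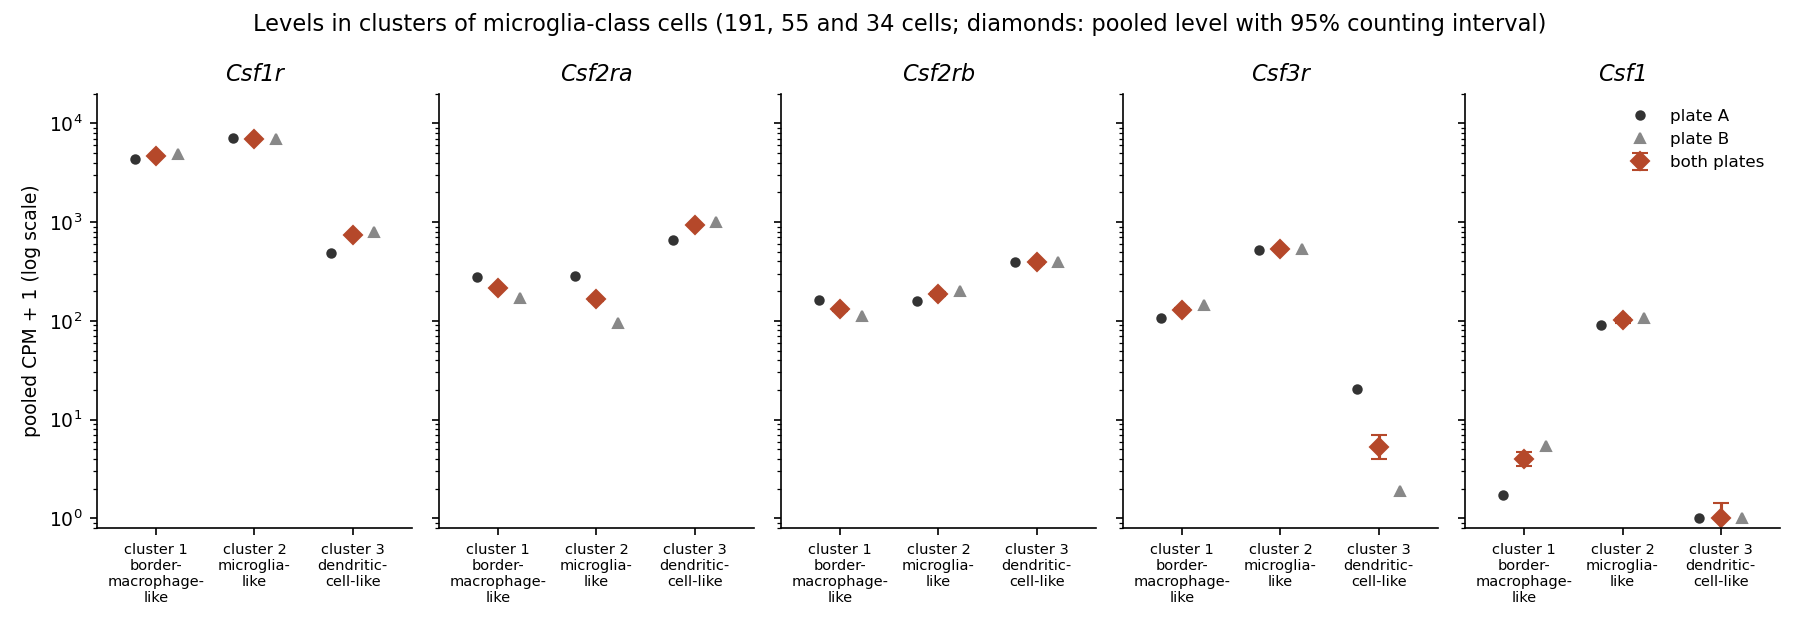
Pooled levels of 5 genes in the 3 clusters of the microglia class, as CPM + 1 on a log scale, with diamonds for both plates together (bars are exact 95% counting intervals), circles for plate A and triangles for plate B. Csf1r is lowest and Csf2ra and Csf2rb are highest in cluster 3, Csf3r and Csf1 are highest in cluster 2, and the plates lie close together for Csf1r in clusters 1 and 2.

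The clusters differed in depth, with medians of 126916 reads in border-associated-macrophage-like, 198081 in microglia-like and 214804 in dendritic-cell-like cells. With every cell thinned to 70000 reads (30, 3 and 1 shallower cells left out, in that order) the shares with 10 reads kept their order for each gene described. Csf2ra was then at 78.8% of dendritic-cell-like, 21.1% of border-associated-macrophage-like and 28.8% of microglia-like cells. Csf3r was at 61.5% of microglia-like, 18.6% of border-associated-macrophage-like and 3.03% of dendritic-cell-like cells. Csf1r was at 100% of microglia-like, 99.4% of border-associated-macrophage-like and 42.4% of dendritic-cell-like cells, against 100%, 97.4% and 67.6% before thinning and with the shallower cells included. At a finer resolution clusters 2 and 3 were the same cells, and cluster 1 parted into 4 pieces of 39 to 65 cells. Across these pieces Csf1r varied little, from 4378 to 4983 CPM, and Csf2ra varied widely, from 41.5 to 347 CPM.

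Single cells differed in how many of the receptor genes they carried. At 10 or more reads, 116 of 280 microglia-class cells (41.4%) had 1 of the 4 receptor genes, 105 had 2, 46 had 3, 9 had all 4 and 4 had none. All 73 cells with Csf3r also had Csf1r, as did 79 of the 89 cells with Csf2ra. Csf1r itself reached 10 reads in 264 of the 280 cells (94.3%), so a large overlap follows from that share alone. Of the 10 cells with Csf2ra and without Csf1r, 9 were dendritic-cell-like. The alpha and beta chains of the Csf2 receptor were seen together at this depth in 32 cells, out of 89 with Csf2ra and 74 with Csf2rb. This pair was found in 15 of 34 dendritic-cell-like cells (44.1%, 27.2 to 62.1), 7 of 55 microglia-like cells (12.7%, 5.27 to 24.5) and 10 of 191 border-associated-macrophage-like cells (5.24%, 2.54 to 9.42). Taken singly, Csf2ra reached 10 reads in 28, 17 and 44 cells and Csf2rb in 19, 18 and 37 cells, in the same cluster order. The pair thus followed the shares of the single genes, and whether it was more frequent than they give was not tested. A gene without 10 reads in a cell may still be transcribed there, since Smart-seq2 captures part of the RNA. Over the 280 cells, which share plates and depth, the Spearman correlation of Csf1r was -0.27 with Csf2ra, -0.16 with Csf2rb and 0.19 with Csf3r, too weak in sparse counts to be read as relations.

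The promoter windows of 3 of the 6 genes were at hand, and they are shown because Csf2ra and Csf3r were near 0 in endothelial cells while Csf1 was not. Each line gives the 250 bases before the gene's start in RefSeq (GRCm38.p6, 5′ to 3′ on the gene's strand), with matches to GAGGAA, a core motif of the macrophage transcription factor encoded by Spi1, in capitals. Csf2ra lies at chr19:61228419-61228668 on the minus strand, Csf3r at chr4:126024409-126024658 on the plus strand and Csf1 at chr3:107760470-107760719 on the minus strand.
Csf2ra: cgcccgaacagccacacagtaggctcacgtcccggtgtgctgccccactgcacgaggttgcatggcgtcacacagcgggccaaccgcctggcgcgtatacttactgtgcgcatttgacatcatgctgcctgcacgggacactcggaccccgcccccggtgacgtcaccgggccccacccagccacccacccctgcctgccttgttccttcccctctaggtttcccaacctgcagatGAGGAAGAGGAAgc
Csf3r: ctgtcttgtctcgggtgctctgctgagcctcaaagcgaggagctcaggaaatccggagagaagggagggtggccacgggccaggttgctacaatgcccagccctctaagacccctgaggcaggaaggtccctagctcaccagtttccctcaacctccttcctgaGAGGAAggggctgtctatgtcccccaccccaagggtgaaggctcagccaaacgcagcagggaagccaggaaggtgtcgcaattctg
Csf1: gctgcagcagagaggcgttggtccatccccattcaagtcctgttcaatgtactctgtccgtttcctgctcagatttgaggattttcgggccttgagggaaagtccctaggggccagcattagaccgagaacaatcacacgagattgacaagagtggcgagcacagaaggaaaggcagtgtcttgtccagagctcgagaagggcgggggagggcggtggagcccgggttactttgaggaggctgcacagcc
Both strands were searched, and the reverse complement TTCCTC would also have been set in capitals. The Csf2ra window held 2 adjoining copies, the Csf3r window 1 and the Csf1 window 0. The motif is common, found in 7639 of 32851 promoter windows of the same length (23.3%), so a match describes these letters and no site. Spi1 itself stood at 861 CPM in the microglia class and 0.281 CPM in the endothelial class. By cluster it was nearly level, at 933 CPM in dendritic-cell-like, 915 CPM in microglia-like and 817 CPM in border-associated-macrophage-like cells, unlike Csf1r, Csf2ra or Csf3r.

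The partners of these receptors were measured in part. Of 7 ligands and partner chains of the Csf2, Csf3 and interleukin 3 receptors, the ligand genes Csf2, Csf3, Il3 and Il5 and the receptor gene Il5ra had no read in any cell. Both measured members were receptor chains, Csf2rb2 higher in the microglia class and Il3ra, the alpha chain of the interleukin 3 receptor, between the thresholds at 18.9 CPM in the microglia class and 54.0 CPM in the endothelial class. Il3ra turned round on plate A, at 23.5 CPM in the microglia class and 0 CPM in the endothelial class. Among 5 measured co-receptors and processing genes (median log2 ratio -0.83, against 0.36 over all genes), 1 passed 4-fold towards each class (19.9 percent of all genes did so towards the microglia class and 11.7 percent towards the endothelial class). Trem2, a lipid-sensing receptor of microglia, stood at 1095 CPM in the microglia class and 3.00 CPM in the endothelial class. Timp3, an inhibitor of metalloproteinases, stood at 10.9 CPM in the microglia class and 3147 CPM in the endothelial class. Adam17, a sheddase that releases Csf1r protein from the cell surface, stood at 129.96 CPM in the microglia class and 43.3 CPM in the endothelial class, and Adam10, a related sheddase, at 82.6 and 148 CPM in the same class order.

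The other class III receptor tyrosine kinases, the family of Csf1r, and their ligands gave no common direction. Of 7 measured genes 2 passed 4-fold towards each class and 3 lay between (median log2 ratio -0.33), beside the same 19.9 and 11.7 percent of all genes. Flt3, a receptor of dendritic cell precursors, stood at 33.3 CPM in the microglia class and 0.234 CPM in the endothelial class. Its reads lay mostly in the dendritic-cell-like cluster, at 160.1 CPM, against 7.55 CPM in microglia-like and 5.77 CPM in border-associated-macrophage-like cells, but Flt3 was also a marker that named that cluster. Kitl, the ligand of the Kit receptor, stood at 23.0 CPM in the microglia class and 136 CPM in the endothelial class, in the same direction as Csf1, though on plate B its log2 ratio was -1.54, short of 4-fold. Pdgfb, a recruiter of pericytes, stood at 108 CPM in the microglia class and 276 CPM in the endothelial class. Pdgfa, another platelet-derived growth factor, stood at 43.1 CPM in the microglia class and 54.3 CPM in the endothelial class, but was higher in the microglia class on both shared plates, at 30.3 against 0 CPM on plate A and 50.1 against 12.3 CPM on plate B. Pdgfrb, the receptor of Pdgfb protein on mural cells, stood at 1.14 CPM in the microglia class and 12.9 CPM in the endothelial class, where mural cell markers summed to 234 CPM. That direction did not hold on the shared plates, with Pdgfrb at 2.03 CPM in the microglia class and 0 CPM in the endothelial class on plate A, and 0.651 and 0.471 CPM in the same class order on plate B.

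Transcription factors of the Csf1r gene and the macrophage lineage were mostly higher in the microglia class, 9 of 11, with none past 4-fold in the other direction (median log2 ratio 5.88), beside 19.9 and 11.7 percent of all genes. Irf8, an interferon regulatory factor needed by microglia, stood at 812 CPM in the microglia class and 27.8 CPM in the endothelial class, and Maf at 395 and 4.63 CPM in the same class order. Irf8 had a read in 10.8% of endothelial cells, and its endothelial level was 1.04 CPM on plate A and 0 CPM on plate B. The remaining pair, Ets2 and Fli1, are factors of the ETS family that endothelial cells also use. Ets2 stood at 101 CPM in the microglia class and 281 CPM in the endothelial class.

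Signalling genes downstream of Csf1r were divided. Of 25 measured, 12 passed 4-fold towards the microglia class, 1 passed it towards the endothelial class and 12 lay between (median log2 ratio 1.95), beside 19.9 and 11.7 percent of all genes. Tyrobp, an adaptor that also serves Trem2, stood at 1384 CPM in the microglia class and 7.16 CPM in the endothelial class. Ptpn6, a phosphatase of blood cells, stood at 568 CPM in the microglia class and 0.889 CPM in the endothelial class. Inpp5d, a lipid phosphatase, stood at 542 CPM in the microglia class and 81.0 CPM in the endothelial class, and Lyn, a Src family kinase, at 506 and 135 CPM in the same class order. Sos1, an exchange factor for Ras, was the 1 gene past 4-fold in the other direction, at 23.0 CPM in the microglia class and 123 CPM in the endothelial class. Sos1 turned round between the shared plates, at 15.7 CPM in the microglia class and 9.35 CPM in the endothelial class on plate A, and 27.0 and 251 CPM in the same class order on plate B. The JAK, STAT and SOCS genes used by the Csf2 and Csf3 receptors lay mostly between the thresholds in the pooled classes, 9 of 12. Of the rest, 1 passed 4-fold towards the microglia class and 2 towards the endothelial class (median log2 ratio -0.61). Of all genes, 19.9 and 11.7 percent did so in the same class order (median log2 ratio 0.36), so these counts set the list little apart. Jak1 stood at 237 CPM in the microglia class and 178 CPM in the endothelial class, Stat3 at 127 and 261 CPM and the feedback inhibitor Socs3 at 657 and 309.9 CPM in the same class order. Within plates these genes varied widely. Jak1 had a log2 ratio of -0.80 on plate A and 3.21 on plate B, Stat3 -0.27 and 5.71, and Socs3 -0.15 and 0.67 in the same plate order. Pim1, a kinase gene induced by cytokines, was higher in the microglia class at 42.5 CPM, against 2.90 CPM in the endothelial class. Cish, another feedback inhibitor gene, stood at 10.8 CPM in the microglia class and 182 CPM in the endothelial class, and Socs2 at 7.45 and 88.8 CPM in the same class order.

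**Figure D4:**
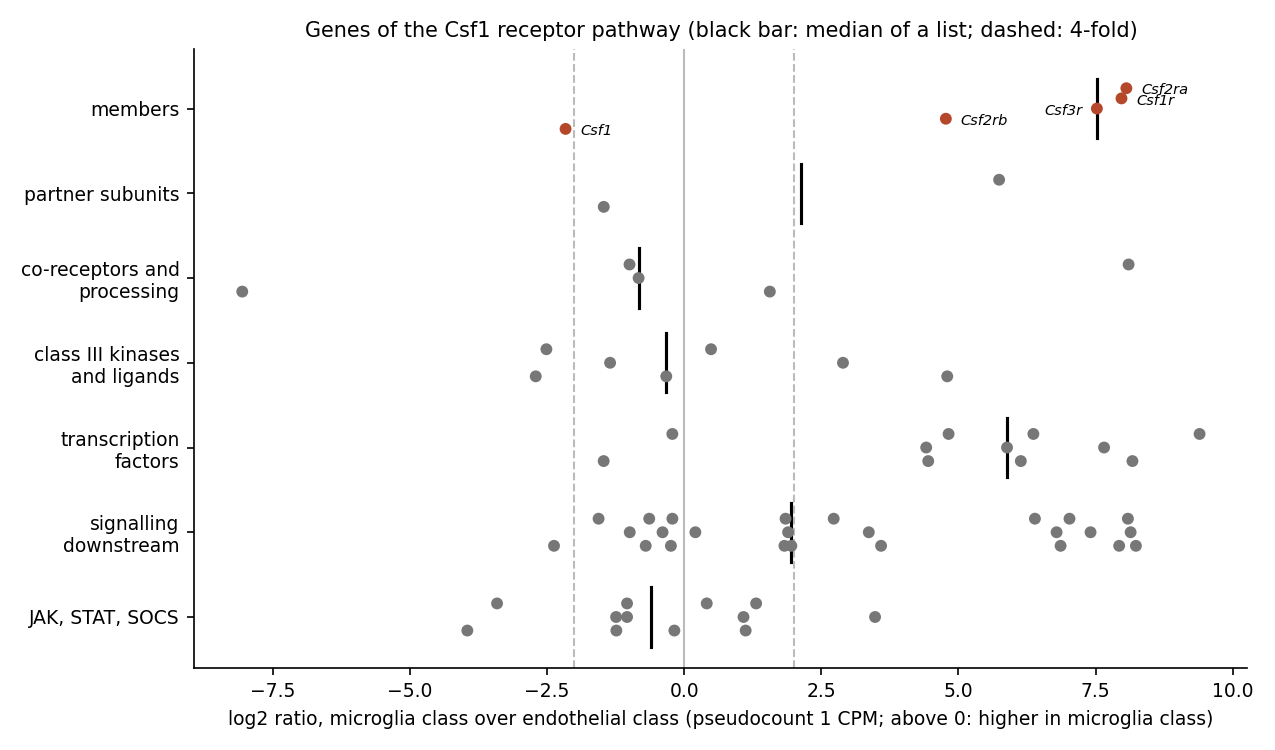
Log2 ratio, microglia class over endothelial class, with a pseudocount of 1 CPM, for each measured gene of the 7 lists, with the followed genes in red, a black bar at the median of each list and dashed lines at 4-fold. The transcription factors lie mostly to the right, the JAK, STAT and SOCS genes lie around 0, and Csf1 stands apart from the receptors.

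Csf1r varied between cells most like the following genes. Over the 280 microglia-class cells and 1049 genes compared, the highest Spearman correlations of log2(CPM + 1) were 0.50 for Lgmn, 0.45 for Cd81, 0.44 for Trem2, 0.44 for P2ry12 and 0.43 for Ctsd. Lgmn and Ctsd encode lysosomal proteases, Cd81 a tetraspanin and P2ry12 a purinergic receptor of microglia. These cells share plates and fall into clusters of unequal Csf1r level, and the correlation of Csf1r with the reads of a cell was 0.0034. Over all 391 cells and 948 genes the highest were Lgmn at 0.80, Cx3cr1 and Trem2 at 0.75, Ctss at 0.75 and C1qa at 0.73, a measure that spans both classes. For Csf1 in the 111 endothelial cells the highest of 1193 genes were Tax1bp1 and Tecr at 0.30, Ano6 at 0.27, Cldn5 at 0.26 and Tcn2 at 0.25, and with 37 cells holding a Csf1 read these are no finding.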

How the data were processed

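Adult mouse brain vascular cells were profiled with Smart-seq2, per the labels. The authors deposited raw counts, whole numbers of reads for each gene with no normalization. The submitters' processing notes list featureCounts, Subread 1.4.6-p5, SAMtools 1.16.1 and build GRCm39. The aligner, the gene annotation and the handling of strand and of duplicate or multiply mapped reads were not given in the sources used here.

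Classes came from the labels, and count columns were matched to a class through the deposited cell table, with 0 unmapped and 0 identical columns. No cells were removed and no doublet caller was run. Reads were summed per class and scaled to CPM. Log2 ratios used a pseudocount of 1 CPM, which understates ratios of low genes. A gene was measured if either class reached 1 CPM, and was called higher from 4-fold. For a ratio, 0 reads in a class became a floor of 3 reads. RPKM used exon lengths of GENCODE M21, which belongs to an older build than the files, so these lengths are approximate.

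The 6 genes, the lists, the markers and the tests were chosen with earlier results of these data known. Besides the 6 genes, each list was represented by as many as 4 members of highest level, with the most extreme member in each direction at 10 CPM or more. Also named were the 5 genes most correlated with Csf1r or Csf1 among those read in at least 50% of cells. 1 gene that this rule names is not reported here. Socs2, Fli1, Ltf, Csf1r-ps, the partner genes without reads and the cluster values of Flt3 and Spi1 were chosen after their values were seen.

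Microglia-class cells were clustered without the 6 genes, Csf2rb2 and Csf1r-ps on log CPM (2000 variable genes, 20 principal components, 15 neighbours, Leiden at resolution 0.5). Thinning to 70000 reads left 34 cells out of the microglia class and 0 out of the endothelial class. Alternatives covered scaling, pseudocount, filters, thresholds, plates, cells left out and clustering. Software was Python 3.11.15, scipy 1.17.1, scanpy 1.11.5, leidenalg 0.10.2 and, for scaling factors only, edgeR 4.0.16 and DESeq2 1.42.0.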

Additional observations from a re-analysis of the deposited data

How the results depend on the processing

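Of the log2 ratios of the 6 genes recomputed under alternatives, 49 moved by less than their counting interval, 15 moved further, 1 changed sign and 1 no longer passed 4-fold. That interval was wide for Csf2ra, Il34 and Csf3r, which had 5, 3 and 2 endothelial reads. For these genes, staying within it reflects few reads and says little about stability. With a pseudocount of 0.1 the log2 ratio of Csf3r went from 7.52 to 10.01 and still counted as within. The log2 ratio of Csf1r was 7.97, and it was 8.98 within plate A, 8.73 within plate B, 8.60 for the microglia-like cluster alone and 10.29 without the tenth of endothelial cells highest in microglia core reads. It was 10.04 without the endothelial cell with most Csf1r reads, an alternative chosen after seeing the data. The log2 ratio of Csf1 was -2.16, and it was 4.54 within plate A, where the 7 endothelial cells had no read, so that the pseudocount sets its size. It was -3.76 within plate B, -2.29 with DESeq2 size factors, -2.44 as a mean of the cells' own CPM and -0.21 for the microglia-like cluster alone. It was -2.26 without the tenth of endothelial cells highest in microglia core reads and -2.01 without the tenth of microglia-class cells highest in endothelial reads. The number of the 6 genes higher in the endothelial class was 1, and 0 within plate A and for the microglia-like cluster alone. DESeq2 size factors shifted the median log2 ratio of all genes by -0.12. Within plates A and B that median shifted by 0.99 and 1.13, towards the microglia class. That shift is a median over genes, with 7 and 10 endothelial cells on plates A and B, and a single gene need not carry it. The Csf1r ratios within plates, for example, lay above 7.97 but below the 10.04 without the endothelial cell with most Csf1r reads. The share of genes past the threshold was 19.9% towards the microglia class and 11.7% towards the endothelial class. With no filter on low genes the shares were 11.6% and 6.82%, and at 2-fold they were 37.2% and 22.1%, in the same class order. With genes scaled before clustering, also chosen after seeing the data, the clusters held 130, 96 and 54 cells, and all 34 dendritic-cell-like cells fell in that of 96, where Csf1r stood at 2973 CPM, Csf2ra at 609.9 CPM, Csf2rb at 224 CPM and Csf3r at 95.3 CPM. Of the shares of cells 6 stayed within their interval and 18 moved. Shares at 1 or more reads were set against those after thinning to 70000 reads and against those at 10 or more reads. The latter is a stricter measure and all of its shares moved, so the 18 are no measure of stability. Of the cluster levels 37 stayed within their interval and 17 moved. At resolution 0.3 all 3 clusters held the same cells as before, and at resolution 1.0 clusters 2 and 3 did. Their levels could not move there, so the 37 are mostly repeats and no measure of stability. The causes of these changes were not tested, and values of plates were only set side by side. No paired analysis was possible because the labels give no replicate numbers and each class is 1 sample, so the values within the shared plates stand in its place. Depth limits Il34 and every level below 1 CPM, and the number of animals is not known.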
